A study of Mus musculus with 17 samples.

Results

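A set of 10 genes of liver mesenchymal cells was followed in the gene counts of this study, chosen by their symbols: Acta2, Tagln, Timp1, Lum, Dcn, Dpt, Mgp, Sparc, Lox and Pdgfrb. All 10 were present among the 19151 genes counted on the high-fat diet (HFD) and among the 24233 genes counted on the western-type diet (WD), a high-fat and high-cholesterol food. The study deleted NgBR (gene Nus1), a subunit of the enzyme that makes dolichol for protein glycosylation, by joining a loxP-flanked allele with an albumin-Cre transgene in male C57BL6 mice. The knockout is called N-LKO and the control WT. Albumin-Cre acts in hepatocytes, so stellate cells and fibroblasts of an N-LKO liver keep the gene. Bulk RNA-seq was made after 16 weeks of diet from 4 WT and 4 N-LKO livers on HFD, and from 3 WT livers, 3 N-LKO livers and 3 tumors of N-LKO mice on WD. The mice had chow for 8 weeks before the switch. The exact genotype behind WT, and whether a tumor and a liver came from 1 animal are not given in the sources used here.

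In healthy liver the hepatic stellate cell stores retinol beside the sinusoid, and portal fibroblasts and vascular smooth muscle surround the larger vessels and ducts. On injury these cells can become myofibroblasts, which make contractile proteins and lay down fibrillar collagen with the proteins that order, bind and crosslink it. The genes here cover those roles: smooth muscle actin and transgelin (Acta2, Tagln), collagen-binding proteins (Lum, Dcn, Dpt), matricellular, calcification-limiting and crosslinking proteins (Sparc, Mgp, Lox), the receptor for PDGF (Pdgfrb), and an inhibitor of matrix metalloproteinases (Timp1). In bulk liver fewer cells of a type and less RNA per cell cannot be told apart, and this holds for each level given here.

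Levels are in CPM, counts scaled to library size after correction by the trimmed mean of M values (TMM), and ± is the SD over livers or tumors. Libraries held between 9096110 and 12215784 counts on HFD and between 15494731 and 20200618 on WD. Nus1 was 88.2 ± 5.90 CPM in HFD-fed WT livers, against 35.1 ± 3.99 CPM with the knockout. On WD it was 94.5 ± 5.57 in WT livers, 46.7 ± 4.75 in N-LKO livers and 35.8 ± 7.59 in tumors. The summed CPM of 10 hepatocyte markers was at least 35690 in every library, including the tumors, and on WD it moved with the groups, as given beside the WD results. The diets were counted in separate tables, so diet and table cannot be told apart and levels are not compared across them. WT replicate 2 on WD stood apart for these genes: it was the lowest of its group for 10 of 10 of them and had the lowest TMM factor of the WD table, 0.806. The trait was not particular to these genes, since it was also the lowest WT liver for the summed level of 15 of 20 other gene lists.

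Dpt, which encodes the collagen-binding protein dermatopontin, was the gene of the set that passed the test on HFD, so its promoter is shown. The 250 bases before its RefSeq start on GRCm38.p6, plus strand, lie at chr1:164796413-164796662, and the last 19 of them fall in the first exon as GENCODE draws it.

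Dpt upstream: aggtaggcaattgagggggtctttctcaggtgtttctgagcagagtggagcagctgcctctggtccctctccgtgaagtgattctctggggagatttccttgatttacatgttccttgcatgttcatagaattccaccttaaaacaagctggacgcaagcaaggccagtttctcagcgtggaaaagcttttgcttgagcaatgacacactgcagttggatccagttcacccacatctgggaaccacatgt

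No base is in capitals because none of the motifs searched on both strands lay in the printed stretch. These were the CArG box of serum response factor, TATAAA, the AP-1 site TGANTCA and CAGACA, a sequence that SMAD proteins bind. Only exact matches were counted, with the CArG box as CCWWWWWWGG, where W is A or T. Of 32851 mouse promoter windows of 300 bases, 1.63% held a CArG box, 13.6% TATAAA, 7.81% TGANTCA and 21% CAGACA. RefSeq windows were given for 4 of the 10 genes (Dpt, Sparc, Acta2 and Timp1). CAGACA was found in those of Acta2 and Sparc, TATAAA 12 bases past the start of Dpt, and no exact match in that of Timp1. Much of the 250 bases before the RefSeq start is annotated exon for Sparc (238 bases) and Acta2 (217 bases), against 0 for Timp1. The window of Acta2 held near matches to the CArG box, which this search did not count.

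The HFD comparison asks what loss of NgBR in hepatocytes did to these genes after 16 weeks of fat feeding. Dpt rose in N-LKO livers and was the single called gene of the set. Each of the other 9 had a higher mean in N-LKO than in WT livers but did not pass the test over all genes. For Acta2 and Pdgfrb, as for Dpt, every N-LKO liver was above every WT liver.

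**Figure D1:**
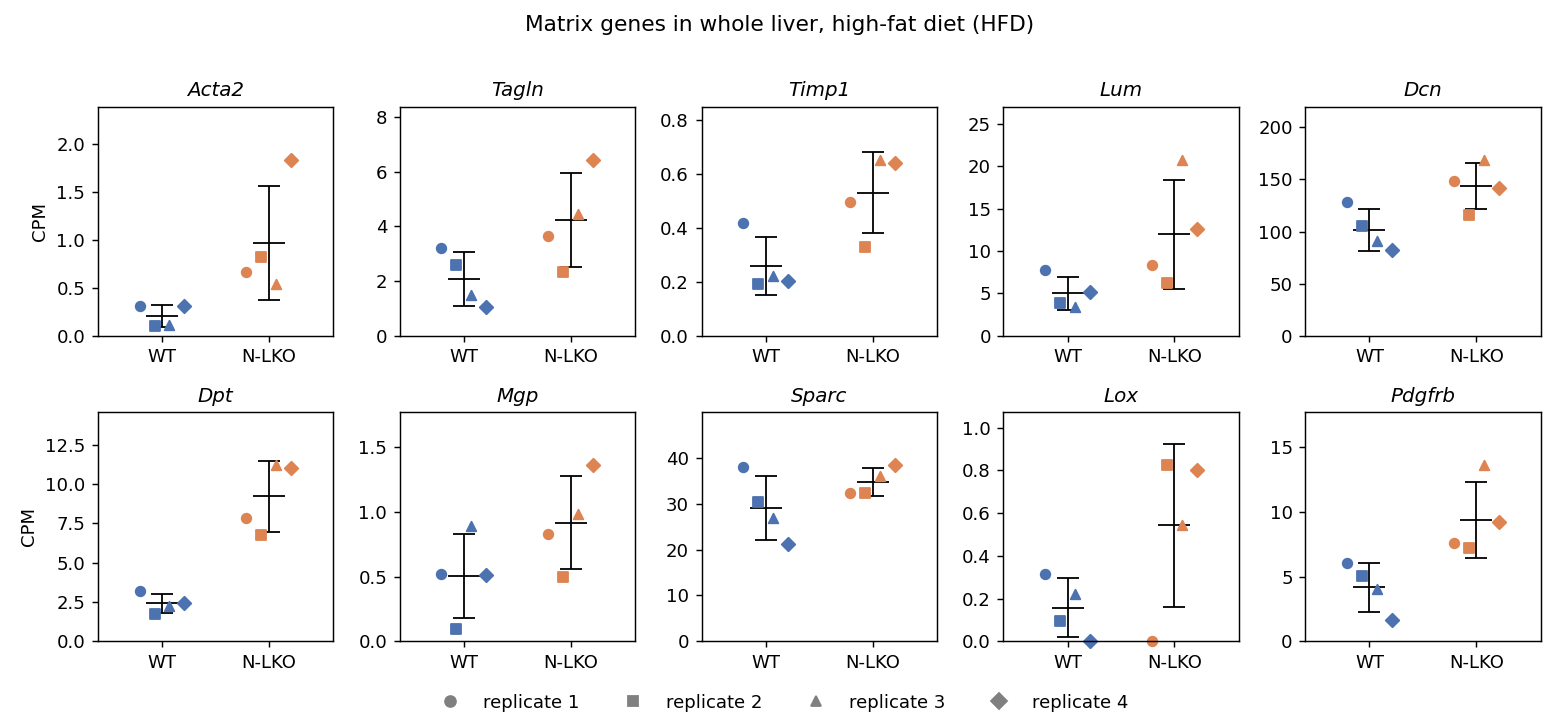
CPM of each gene in the 8 livers on HFD, with WT in blue and N-LKO in orange and one marker shape per replicate number. The horizontal line is the group mean and the bar is 1 SD (n = 4). Acta2, Dpt and Pdgfrb have no overlap between the groups, and the WT circle (replicate 1) lies at the top of its group for 9 of 10 genes.

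Dpt (chr1:164796644-164824266 on GRCm38, plus strand) was 3.23, 1.72, 2.22 and 2.44 CPM in WT livers 1 to 4 and 7.87, 6.76, 11.2 and 11.04 CPM in N-LKO livers 1 to 4. The lowest N-LKO liver was thus above the highest WT liver. The fitted log2 fold change was 1.93 (SE 0.23, adjusted p = 0.00247, edgeR quasi-likelihood test), from 2.40 ± 0.63 to 9.22 ± 2.25 CPM. Gm32569, an annotated antisense gene, overlaps Dpt, and no strand setting of the counting is given in the sources used here, so their reads cannot be told apart.

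The other collagen-binding genes are Lum (lumican, chr10:97565128-97572703) and Dcn (decorin, chr10:97479609-97518143), which are small leucine-rich proteoglycans and lie on the same stretch of chromosome 10. Lum was 7.71, 3.82, 3.34 and 5.19 CPM in WT livers and 8.37, 6.18, 20.8 and 12.6 CPM in N-LKO livers. Dcn was far more abundant, at 129, 105, 90.5 and 82.3 CPM in WT livers and 148, 115.6, 169 and 142 CPM in N-LKO livers. For both genes WT replicate 1 lay above N-LKO replicate 2 and the groups overlapped. The log2 fold changes were 1.24 (adjusted p = 0.141) for Lum and 0.50 (adjusted p = 0.0735) for Dcn by edgeR. Without WT replicate 1, Dcn passed the threshold (log2 fold change 0.63, adjusted p = 0.0177), as it did without N-LKO replicate 2 (0.59, adjusted p = 0.0356). With any other liver left out it did not pass.

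Among the contractile genes, Acta2 (chr19:34241090-34255590) was close to the limit of counting. WT livers held 3, 1, 1 and 3 reads of it and N-LKO livers 8, 10, 5 and 23. The summed counts, 46 against 8, gave a depth-adjusted ratio of 4.87 with an exact 95% interval of 2.28 to 11.9, which covers counting error only. Acta2 did not reach the count filter of the test. With no filter it was called, at a log2 fold change of 2.21 (adjusted p = 0.0476).

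Tagln (chr9:45929619-45936058), an actin-binding protein of smooth muscle, was 3.20, 2.60, 1.48 and 1.06 CPM in WT livers and 3.66, 2.34, 4.44 and 6.44 CPM in N-LKO livers. Its log2 fold change of 1.01 (SE 0.38) had an adjusted p of 0.131. Its counts were fractional in 8 of 8 libraries, and Pcsk7 and an antisense model overlap it on the other strand, so reads may have been split between them.

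Pdgfrb, through which PDGF drives stellate cell division and migration, was 6.04, 5.07, 4.00 and 1.63 CPM in WT livers and 7.62, 7.17, 13.6 and 9.20 CPM in N-LKO livers. The groups did not overlap, yet the log2 fold change of 1.15 (SE 0.34) stopped at an adjusted p of 0.0792. Sparc (chr11:55394500-55423183), a collagen-binding matricellular protein also made by endothelium, was 38.0, 30.3, 26.9 and 21.3 CPM in WT livers, against 32.3, 32.3, 36.0 and 38.4 CPM in the N-LKO group. Here the highest WT liver stood level with the highest N-LKO liver, and the log2 fold change was 0.25 (adjusted p = 0.336).

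The 3 remaining genes did not reach the count filter on HFD. Timp1 (chrX:20870166-20874735) had 4, 2, 2 and 2 reads in WT and 6, 4, 6 and 8 in N-LKO livers, a ratio of 2.03 (exact 95% interval 0.937 to 4.76). Mgp (chr6:136872435-136875823), which encodes matrix Gla protein, had 5, 1, 8 and 5 against 10, 6, 9 and 17 reads, a ratio of 1.87 (1.07 to 3.41). Lox, the enzyme that crosslinks collagen and elastin, had 3, 1, 2 and 0 against 0, 10, 5 and 10 reads, a ratio of 3.53 (1.41 to 10.5). The group ranges overlapped for all 3, and N-LKO replicate 1 had no Lox read, which allows up to 3 counts.

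Counted together, 6 of 10 genes were tested on HFD and 1 was called, against 5.44% of the 13460 genes tested (2.93% called higher). Log2 fold changes of the 6 were all above 0, as were 49.1% of all genes tested, and their median was 1.08 against -0.01 for all genes. Of the 6, 5 had an unadjusted p under 0.05, against 22.4% of all genes. Of the 10, 3 had non-overlapping groups with N-LKO higher, against 7.38% of tested genes. That count was 7 without WT replicate 1 (10.3% of all genes) and 7 without N-LKO replicate 2 (10.4%). These livers lay at the extremes of their groups for most of these genes, and leaving out a liver cannot lower such a count. The rise thus follows from the choice of livers and carries no weight beside the shares of all genes.

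The same question was asked on WD, the diet high in fat and cholesterol. N-LKO livers had higher means than WT livers for all 10 genes, most of all for Mgp and Lox. For 7 genes every N-LKO liver lay above every WT liver. No gene of the set passed the test, and none of the 17829 genes tested did. Nus1, the deleted gene, was among those not called, at a log2 fold change of -1.02 (unadjusted p = 6.62e-05, adjusted p = 0.164, edgeR quasi-likelihood test).

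**Figure D2:**
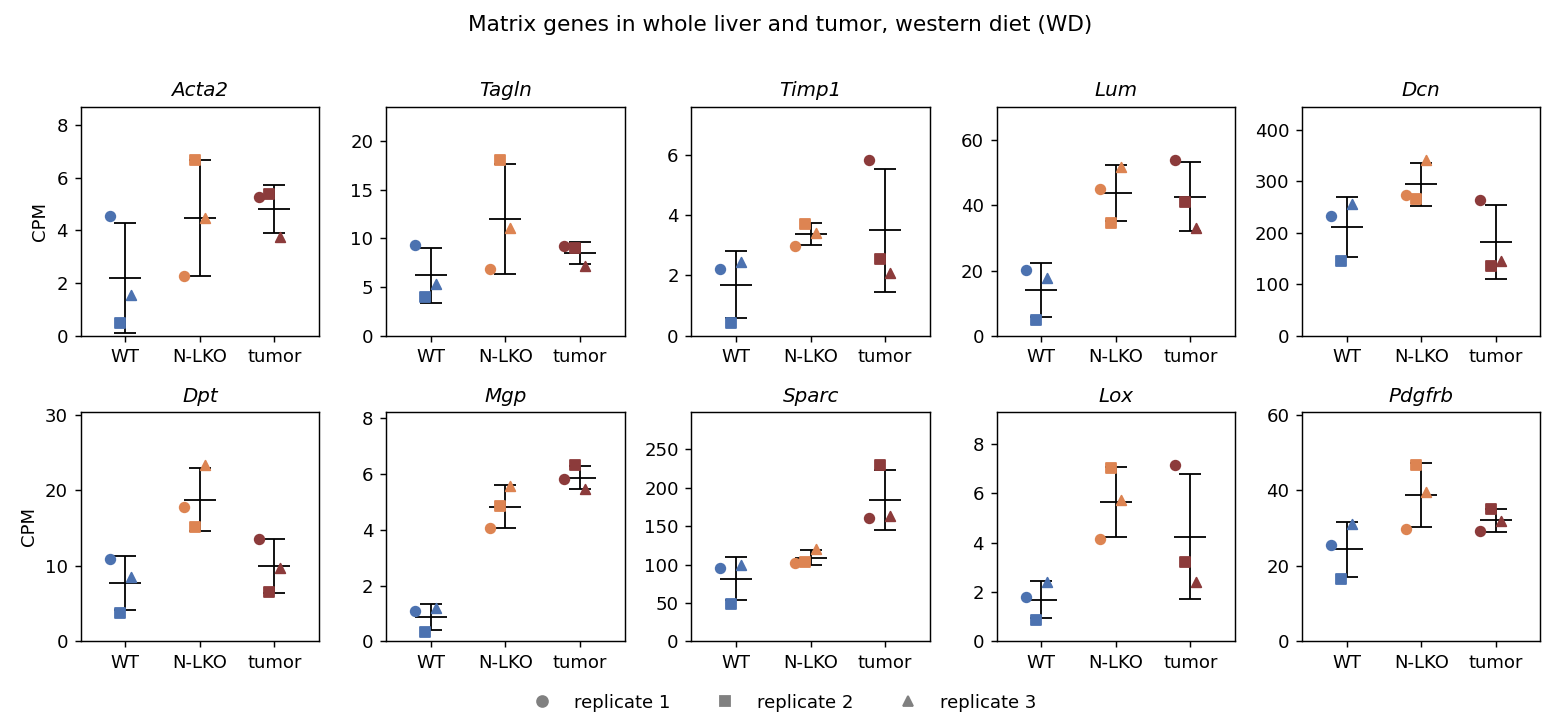
CPM of each gene in the 9 libraries on WD, with WT livers in blue, N-LKO livers in orange and tumors in dark red, and one marker shape per replicate number. The horizontal line is the group mean and the bar is 1 SD (n = 3). The blue square, WT replicate 2, is the lowest WT liver in every panel, and Sparc is the one gene whose 3 tumors all lie above all 6 livers.

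Mgp was 1.098, 0.339 and 1.19 CPM in WT livers 1 to 3, 4.06, 4.84 and 5.58 CPM in N-LKO livers and 5.83, 6.32 and 5.47 CPM in tumors. The WT livers stood below all the others, while N-LKO livers and tumors shared a range. The N-LKO to WT log2 fold change was 2.44 (SE 0.35, unadjusted p = 3.17e-05, adjusted p = 0.164), the 2nd smallest unadjusted p of all genes tested. DESeq2's Wald test called it (adjusted p = 1.57e-07). The summed reads behind it were 290 in N-LKO and 41 in WT livers.

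Lox was 1.78, 0.882 and 2.39 CPM in WT livers, 4.16, 7.03 and 5.74 CPM in N-LKO livers and 7.14, 3.20 and 2.40 CPM in tumors. Every N-LKO liver exceeded the WT range (log2 fold change 1.73, SE 0.46, adjusted p = 0.348), and the tumors also lay above WT, the lowest of them by a narrow gap, while overlapping the N-LKO livers. An annotated antisense gene overlaps Lox too.

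Lum was 20.2, 4.68 and 17.6 CPM in WT livers, 45.03, 34.7 and 51.7 CPM in N-LKO livers and 54.1, 41.01 and 33.1 CPM in tumors. The lowest value outside WT, 33.1 CPM, was above the highest WT liver. Its N-LKO to WT log2 fold change was 1.63 (SE 0.45, adjusted p = 0.348), and DESeq2's Wald test called it (adjusted p = 0.0246).

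Dpt, the gene called on HFD, was 10.9, 3.80 and 8.47 CPM in WT livers, 17.8, 15.2 and 23.3 CPM in N-LKO livers and 13.6, 6.58 and 9.75 CPM in tumors. N-LKO livers formed the upper group and tumors overlapped the WT range. Its N-LKO to WT log2 fold change was 1.28 (SE 0.37, adjusted p = 0.348).

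Dcn was again the most abundant, at 233, 146 and 257 CPM in WT livers, 274, 266 and 342 CPM in N-LKO livers and 264, 136 and 146 CPM in tumors. Sparc was 95.3, 49.2 and 99.96 CPM in WT livers, 103, 103 and 119.9 CPM in N-LKO livers and 160.1, 229 and 163.1 CPM in tumors. Both genes separated WT from N-LKO livers by narrow gaps, and tumors were above all livers for Sparc, while for Dcn tumor 1 lay just above the WT range and the others at or below its lower end. The N-LKO to WT log2 fold changes were 0.47 for Dcn and 0.41 for Sparc (adjusted p = 0.496 and 0.504 by edgeR), and 0.26 and 0.15 without WT replicate 2.

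Acta2 was 4.53, 0.475 and 1.55 CPM in WT livers, 2.25, 6.69 and 4.47 CPM in N-LKO livers and 5.28, 5.38 and 3.75 CPM in tumors. Tagln was 9.32, 3.95 and 5.32 CPM in WT livers, 6.89, 18.1 and 11.05 CPM in N-LKO livers and 9.26, 8.998 and 7.20 CPM in tumors. The contractile pair overlapped between all groups, since WT replicate 1 lay above N-LKO replicate 1 for both. Their N-LKO to WT log2 fold changes were 1.04 (SE 0.64) and 0.96 (SE 0.38), with adjusted p of 0.513 and 0.380 by edgeR. Single libraries moved them: Acta2 was at 2.11 without WT replicate 1, 0.56 without WT replicate 2 and 0.62 without N-LKO replicate 2, and Tagln at 0.54 without N-LKO replicate 2.

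Pdgfrb was 25.5, 16.5 and 31.01 CPM in WT livers, 29.8, 46.7 and 39.6 CPM in N-LKO livers and 29.1, 35.2 and 31.96 CPM in tumors. Timp1 was 2.20, 0.407 and 2.45 CPM in WT livers, 2.99, 3.70 and 3.40 CPM in N-LKO livers and 5.83, 2.54 and 2.09 CPM in tumors. WT and N-LKO livers overlapped for Pdgfrb and did not for Timp1, with log2 fold changes of 0.67 (SE 0.23, adjusted p = 0.357) and 0.99 (SE 0.55, adjusted p = 0.475). Timp1 was at 0.53 without WT replicate 2.

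Of the 10 genes, 0 were called on WD by edgeR, against 0% of all genes tested, and DESeq2 called 2. Of them, 6 had an unadjusted p under 0.05, against 12.3% of all genes. The log2 fold changes were above 0 for 10 of 10, against 51.4% of all genes, and their median was 1.01 against 0.01. The number with N-LKO livers above all WT livers was 7, against 14.4% of all genes. Leaving out WT replicate 2 kept that count at 7 (17.5% of all genes) and lowered the median log2 fold change of the set to 0.64. That liver was the lowest WT liver for 10 of 10 genes, so leaving it out could not change the count. Hepatocyte markers summed to 49598 to 62269 CPM in WT livers, 35690 to 45411 CPM in N-LKO livers and 38043 to 66371 CPM in tumors on WD, so the liver groups did not overlap. Of the 10 markers, 1 had a log2 fold change above 0 between N-LKO and WT livers, with a median of -0.55, 0 called by edgeR and 3 lower at an unadjusted p under 0.05. In tumors, 4 of 10 were called lower than in WT liver (Pck1, Tat, Ttr and Hnf4a), against 14.9% of all genes called in either direction. The median log2 fold change of the 10 markers there was -0.79. The part of this in the results for the 10 genes was not tested.

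**Figure D3:**
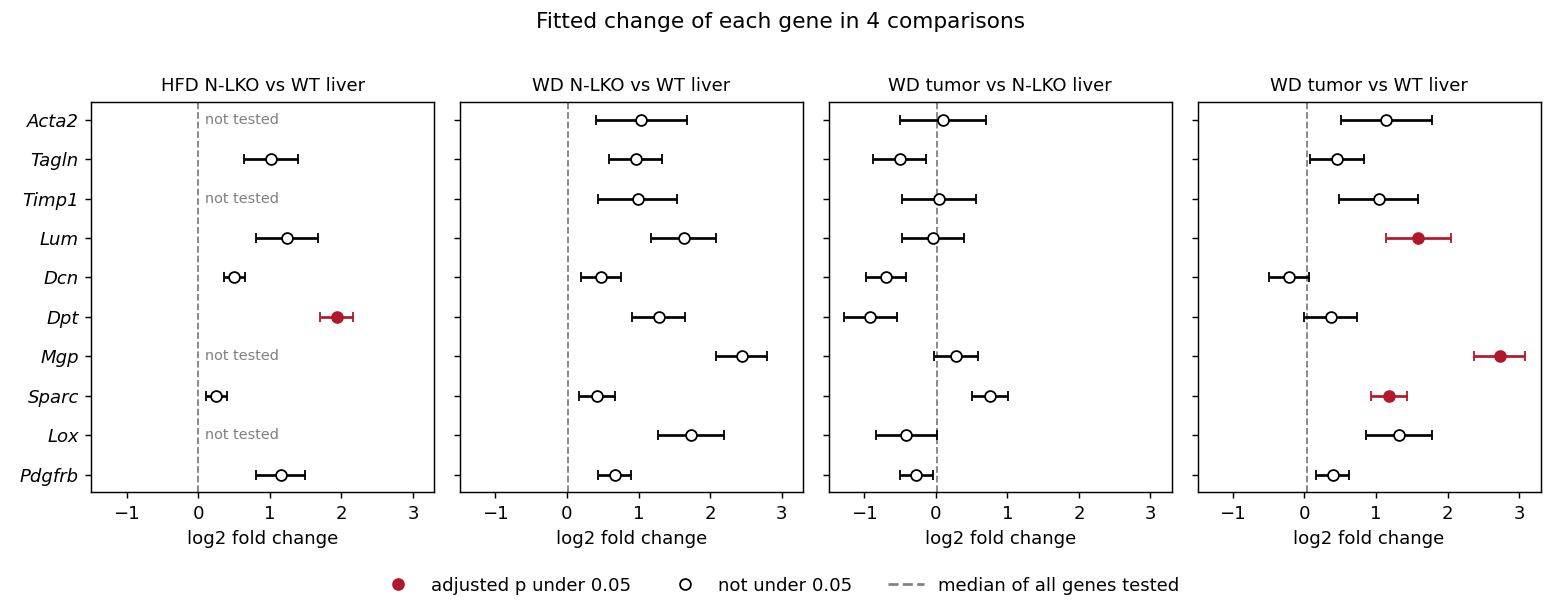
Fitted log2 fold change of each gene (edgeR) in 4 comparisons, with bars of 1 SE and red points where the adjusted p is under 0.05. The dashed line is the median of all genes tested, and 4 genes were not tested on HFD. The points lie to the right of the line in both N-LKO to WT comparisons and on both sides of it between tumor and N-LKO liver.

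A test of whether the knockout effect differed between diets used the 14 livers together. It called 0 of the 10 genes, against 2.18% of 15850 genes tested, and 1 gene, Mgp, had an unadjusted p under 0.05 (19.8% of all genes). The Mgp effect was larger on WD by 1.57 on the log2 scale (SE 0.69, adjusted p = 0.218), and that of Dpt smaller by a value that was also short of the threshold (-0.64, SE 0.45, adjusted p = 0.462). The median over the 10 genes was -0.01, against 0.00478 for all genes.

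Tumors were compared with both WD liver groups, and these comparisons share the tumors. Against N-LKO livers, 0 of 10 genes were called, against 0.426% of 17829 genes, and the median log2 fold change was -0.15 against 0.02 for all genes. An unadjusted p under 0.05 (18.2% of all genes) was found for 3, which were Sparc at 0.76 (SE 0.25, adjusted p = 0.158), Dcn at -0.69 (SE 0.28, adjusted p = 0.232) and Dpt at -0.91 (SE 0.36, adjusted p = 0.228). They were also the 3 genes whose tumors and N-LKO livers did not overlap, a property of 23.1% of all genes. Without tumor replicate 1, Dcn was called lower (log2 fold change -1.06, adjusted p = 0.0218).

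Against WT livers, Mgp, Sparc and Lum rose in tumors, which made 3 of 10 genes called against 14.9% of all genes (8.08% called higher). Mgp had a log2 fold change of 2.73 (SE 0.35, adjusted p = 0.00511), from 0.877 ± 0.468 to 5.87 ± 0.42 CPM. Sparc had 1.18 (SE 0.25, adjusted p = 0.0174), from 81.5 ± 28.1 to 184 ± 39.2 CPM, and was not called when only tumors and WT livers were fitted (adjusted p = 0.0584). Lum had 1.59 (SE 0.45, adjusted p = 0.0467), from 14.2 ± 8.30 to 42.7 ± 10.6 CPM. The Lum call was lost when any library other than WT replicate 2 was left out, with adjusted p between 0.0568 and 0.0947.

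The other 7 genes were not called against WT livers. Lox was at 1.32 (SE 0.46, adjusted p = 0.0773) and passed without tumor replicate 3 (adjusted p = 0.0478). Acta2 at 1.14, Timp1 at 1.04, Tagln at 0.46, Pdgfrb at 0.40, Dpt at 0.37 and Dcn at -0.22 had log2 fold changes with adjusted p between 0.219 and 0.622 by edgeR. Without WT replicate 2 these were 0.67 for Acta2, 0.58 for Timp1, 0.21 for Tagln, 0.18 for Pdgfrb and 0.038 for Dpt. Without tumor replicate 1, Timp1 was at 0.45, Dpt at 0.073 and Lox at 0.72, and without WT replicate 1 Acta2 was at 2.21, Tagln at 0.87 and Dpt at 0.69. In 4 genes the tumors were above all WT livers (Lum, Mgp, Sparc and Lox), against 17.7% of all genes. The median over the 10 was 1.09 against 0.04 for all genes, and 0.62 without WT replicate 2.

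Levels of different genes were compared as CPM per kilobase of annotated exon. Dcn was the highest of the 10 in all 4 liver groups, at 17.4 and 24.6 CPM per kilobase in WT and N-LKO livers on HFD and 36.3 and 50.4 on WD, and Sparc came next in each. In tumors the order turned, with a mean of 48.6 for Sparc and 31.2 for Dcn. The ratio of Sparc to Dcn within a library, which no scaling between libraries alters, lay between 0.328 and 0.631 in the 14 livers. It was 0.934, 2.59 and 1.73 in tumors 1 to 3, so tumor 1 was above every liver. That order does not depend on gene length, but the side of 1 on which a library falls does. Exon length here was the union over transcripts, 5838 bases for Dcn and 3788 for Sparc. With the longest transcripts, 4692 and 2300 bases, all ratios would be higher, so whether tumor 1 held more Dcn than Sparc is not settled. Lox was the lowest of the 10 in every group, from 0.0330 to 1.18 CPM per kilobase. The ranges of Dcn and Sparc overlapped in WT livers on WD and in tumors and were separate in the other groups. Sparc, or Dcn in tumors, lay above the gene next in order in every group. Lum, Dpt, Tagln and Pdgfrb overlapped with their neighbours in order in both HFD groups and in WT livers on WD.

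**Figure D4:**
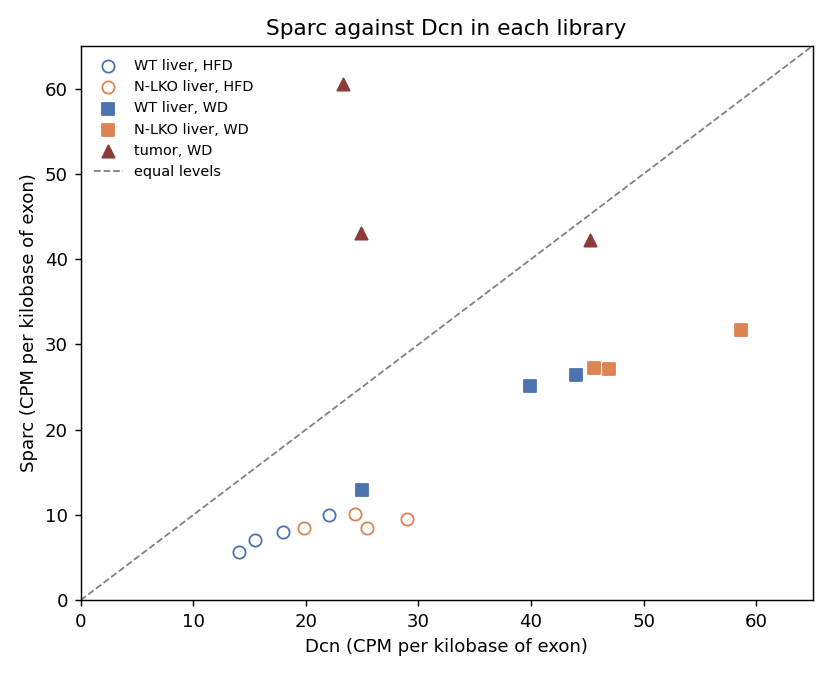
Sparc against Dcn in CPM per kilobase of annotated exon, 1 point per library. The dashed line marks equal levels. With the exon lengths used here, all 14 livers lie below it, with ratios of 0.328 to 0.631, and 2 of 3 tumors lie above it.

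In several groups 1 library was at an extreme for most of the genes. On HFD, WT replicate 1 was the highest WT liver for 9 of 10 genes (Mgp was the exception) and N-LKO replicate 2 the lowest N-LKO liver for 8 of 10. On WD, WT replicate 2 was the lowest for 10 of 10 and N-LKO replicate 1 the lowest for 7, while N-LKO replicate 2 was split, highest for 5 genes (Acta2, Tagln, Timp1, Lox and Pdgfrb) and lowest for 3 (Lum, Dcn and Dpt). Tumors were mixed: tumor 1 was highest for 6 genes and lowest for Sparc and Pdgfrb. Summed over the 10 genes the livers held 115 to 188 CPM for WT, against 173 to 258 CPM for N-LKO, on HFD. The sums on WD were 226 to 427 CPM in WT livers, 489 to 607 CPM in N-LKO livers and 404 to 555 CPM in tumors, most of it Dcn and Sparc.

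**Figure D5:**
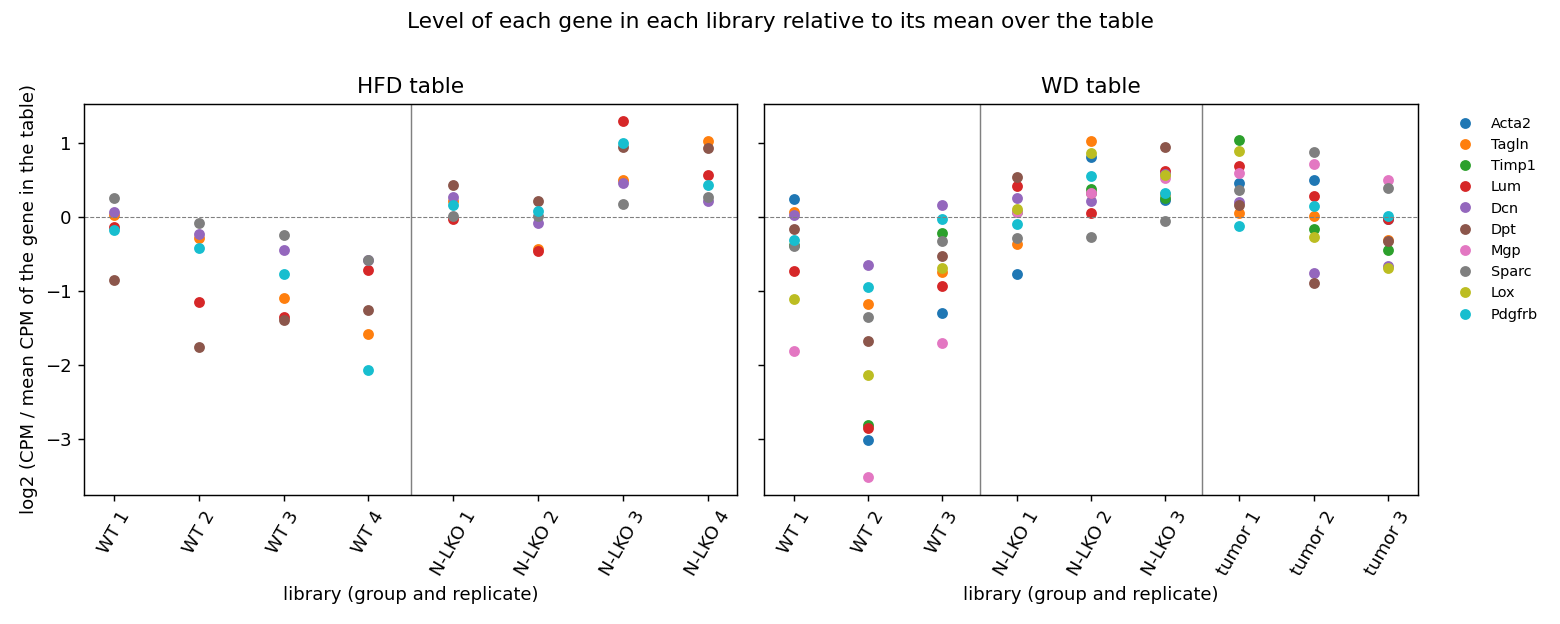
Log2 of each gene's CPM over its mean across the libraries of the same table, 1 column of points per library, for the 6 genes tested on HFD and all 10 genes on WD. Libraries are named by group and replicate number. WT replicate 2 on WD is the column with the lowest points, and Mgp has the lowest point in it.

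The 5 other genes whose profile over the libraries was most like the mean profile of the set were picked from genes of at least 5 CPM. On HFD, over 8 libraries and the 6 tested genes, they were Col1a1 (Pearson r = 0.984), Tagln2, Ubd, Ccdc80 and Col1a2 (0.972). On WD, over 9 libraries and 10 genes, they were Srsf3 (0.984), Ly6a, Mmp2, Sorbs2os and Fstl1 (0.972). These r describe libraries that share group, depth and preparation.

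The fibrillar collagens that these proteins bind were measured beside them. Col1a1 was 4.605 ± 3.68 CPM in WT and 13.5 ± 4.85 in N-LKO livers on HFD, and 50.6 ± 34.9, 102.5 ± 32.8 and 90.7 ± 34.6 CPM in WT livers, N-LKO livers and tumors on WD. The N-LKO to WT log2 fold changes on HFD were 1.55 for Col1a1, 1.22 for Col1a2 and 0.91 for Col3a1 (adjusted p = 0.141, 0.236 and 0.263 by edgeR). On WD they were 1.02, 0.69 and 0.90, with adjusted p of 0.499, 0.539 and 0.504. Of 6 fibrillar collagens tested, 0 were called in either N-LKO to WT comparison or between tumor and N-LKO liver, by edgeR; 2, 1 and 0 had an unadjusted p under 0.05 and a higher level, and 1 a lower level on HFD. Col5a2 was called between tumor and WT liver (log2 fold change 1.49, adjusted p = 0.0245).

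Genes that process and turn over matrix were followed as lists, and those said here to rise or fall passed an adjusted p of 0.05 by edgeR. The shares of all genes called, to read these counts against, were 5.44% on HFD and 14.9% between tumor and WT liver. On HFD, 2 of 12 crosslinking and collagen-processing genes rose (Loxl1 at 1.69 and Adamts2 at 1.20, log2 fold change) and Bmp1 fell by 0.38. Loxl1 is a relative of Lox that acts on elastin. Of 15 tested between tumor and WT liver, 2 rose, Pcolce (2.02), which speeds the trimming of procollagen, and Plod2 (1.34), a lysyl hydroxylase, and 3 fell, among them Pcolce2 (-1.76) and P4ha2 (-1.36). Among small leucine-rich proteoglycans other than Lum and Dcn, Podn fell there (-0.97), the 1 call of 6. Of 14 elastic fibre and matricellular genes tested on HFD, Smoc2 (1.15) and Efemp2 (1.13) rose in N-LKO livers. Fibronectin, Fn1, mostly a hepatocyte product, fell in that comparison by 0.43. Between tumor and WT liver 4 of 12 TIMPs and metalloproteinases rose, among them Mmp13 (3.09), Mmp2 (0.99) and Timp3 (0.84). The fourth, also a TIMP, was Timp4, with at most 1 read in any WT liver and 1.51 to 78.0 CPM in tumors. There 6 of 18 elastic fibre and matricellular genes rose, with Spp1 at 2.88 and Sparcl1, a relative of Sparc, at 1.66.

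Ligands that act on the cells were followed too. Pdgfa, a PDGF ligand, rose on HFD (log2 fold change 0.77, adjusted p = 0.0214), the 1 call among 5 PDGF genes tested other than Pdgfrb. Between tumor and WT liver Pdgfb (1.65) and Pdgfd (0.97) rose among 6. Of 10 TGF-beta ligands, receptors and targets tested on HFD, 0 were called by edgeR and 4 had an unadjusted p under 0.05, 3 of them lower and 1 higher in N-LKO livers. Between tumor and WT liver 4 of 13 rose, led by Tgfb2 (2.38) and the latent TGF-beta binding protein Ltbp2 (2.07), and 2 fell, Smad7 by 0.87 and Tgfbr3. Tgfbr1 was the 1 gene of that list called for the difference between diets (0.79).

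Markers of cell types that could carry these genes moved unevenly. Quiescent stellate cell markers had sums from 162.997 up to 234 CPM for WT and from 163.3 up to 232 CPM for N-LKO on HFD. In that comparison 2 of 14 were called higher, among them Cygb (0.96), and 0 lower. Lrat, which makes the stored retinyl esters, was at -0.50 (adjusted p = 0.156). On WD their sums were 512 to 688 CPM in WT livers, 522 to 577 in N-LKO livers and 380 to 505 in tumors. Against WT livers, 6 of 14 fell in tumors, among them Angptl6 (-2.10), Ecm1 (-1.76) and Ngfr (-1.20), and 1 rose. Of the 14, 5 had a log2 fold change above 0 there.

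Portal fibroblast markers summed to 13.2 to 22.8 CPM in WT livers, against 26.7 to 57.7 CPM in N-LKO, on HFD. On WD the sums were 37.6 to 64.7, 101 to 119 and 137 to 186 CPM in WT livers, N-LKO livers and tumors. Gsn, a large share of that sum and not specific to fibroblasts, was the 1 gene of 6 called on HFD (1.46). No gene of the 10 tested on WD was called between livers by edgeR (6 had an unadjusted p under 0.05). Between tumor and WT liver 6 of 10 rose, led by Cd34 (2.96), which endothelium also expresses, and Col15a1 (2.16). Of the 12 markers, Gli1, Clec3b and Pi16 were not listed on HFD.

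Smooth muscle and contractile genes other than Acta2 and Tagln gave 0 of 5 calls on HFD and 0 of 10 in both WD comparisons with N-LKO livers by edgeR (2, 3 and 1 had an unadjusted p under 0.05). Synpo2 (1.28) and Itga8 (0.94) rose between tumor and WT liver. Smooth muscle myosin, Myh11, was under 5 CPM in every library and Cnn1 was under 1 CPM on WD. Mesothelial markers summed to 1.12 to 11.4 CPM in all 17 libraries with 0 calls in any comparison, and Krt14 was not listed.

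Cholangiocyte markers also moved with these genes, from 20.6 to 39.6 CPM in WT to 55.3 to 101.6 CPM in N-LKO livers on HFD, most of it Spp1. On WD they were 18.1 to 70.5, 117 to 155 and 199 to 528 CPM in WT livers, N-LKO livers and tumors, and WT replicate 2 was the lowest. From N-LKO livers to tumors the sum was carried by Spp1 (122 ± 18.8 to 323 ± 180.0 CPM) and Sox9 (10.5 ± 1.08 to 39.3 ± 20.6 CPM), of which Sox9 was called (1.90, adjusted p = 0.0364). The means of Epcam (2.43 and 1.19 CPM), Cftr (1.67 and 0.799 CPM), Krt7 (0.845 and 0.398 CPM) and Krt19 (0.756 and 0.479 CPM) were lower in tumors, and 3 of 7 markers tested had a log2 fold change above 0 (median -0.65). The duct keratin Krt19 stayed at or under 1.21 CPM in every library. Endothelial markers, of interest because endothelium also makes Sparc, summed to 174 to 209.5 CPM in WT livers and 130.1 to 198 CPM in N-LKO on HFD, with Stab2 (-0.61) and Clec4g (-0.47) called lower. On WD they summed to 415 to 474 CPM over all 9 libraries, and Pecam1 (1.08) and Cdh5 (0.71) rose between tumor and WT liver. The list did not move as a whole there, with 5 of 10 markers above 0 and a median log2 fold change of 0.00232. Lower levels at an unadjusted p under 0.05 by edgeR were found for 3. Mean Clec4g was 31.2 CPM in WT livers and 11.9 CPM in tumors, and mean Stab2 95.3 and 71.2 CPM. Kupffer cell markers summed to 129 to 189.8 CPM in WT livers, against 67.2 to 138.2 CPM in N-LKO, on HFD, with Timd4 called lower (-2.19). On WD these markers summed to 511 to 809 CPM in WT livers, 532 to 605 CPM in N-LKO livers and 260.2 to 588 CPM in tumors, where Marco (-4.13), Timd4 (-3.11) and Cd5l (-1.36) of 10 fell against WT livers. In that comparison 3 of 10 were above 0, and mean Gpnmb was 38.1 CPM in WT livers and 72.1 CPM in tumors. Lymphocyte markers summed to 3.73 to 5.59, 5.59 to 8.42 and 9.35 to 14.6 CPM in WT livers, N-LKO livers and tumors on WD. Cd4 (2.06) was the 1 of 7 called between tumor and WT liver. Muscle and pancreas genes reached 196 CPM in tumor 2 against 10.4 CPM in the lowest tumor, and fat cell markers Adipoq and Plin1 were at 0 in the WT livers on WD. The part of these other cells in the results for the 10 genes was not tested.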

How the data were processed

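Per the labels the libraries were made from total liver RNA with a TruSeq small RNA kit, and the submitters' processing notes name STAR, Partek and mm9, whereas the study's methods describe TopHat2 and cuffdiff. Gene starts in the deposited tables match GENCODE models of GRCm38, which was used for positions, lengths and overlaps. The authors deposited estimated counts per gene from an expectation-maximisation step, 1 table per diet; they were rounded to whole numbers here. Groups came from the sample labels. Replicates are labelled as biological.

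Genes were filtered with filterByExpr (minimum count 10, minimum total 15), scaled by TMM and tested with edgeR 4.0.16 (R 4.3.3, limma 3.58.1), robust quasi-likelihood, with Benjamini-Hochberg adjustment over all genes and a threshold of 0.05. The SE is the log2 fold change over the root of F. WD groups shared 1 fit, and 14 livers the diet test. Ratios of summed counts have exact binomial 95% intervals, and a count of 0 allows up to 3 reads; intervals and floors cover counting error only. On simulated counts 100% of 4-fold changes (100 genes) were recovered for HFD livers, among 13460 genes, and 98% for WD livers, among 17829 genes. For 2-fold changes these were 90% and 21%. The simulation gave all genes the same dispersion and changed only genes above 1 CPM, so these shares are not recovery rates for the real livers. Between the real WD livers, Mgp at a log2 fold change of 2.44 was not called (adjusted p = 0.164 by edgeR), nor was any other gene.

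All 10 genes are named, with the value of each library. From each list, up to 4 called genes of at least 1 CPM with the largest changes were named, besides Col1a1, Col1a2 and Col3a1, markers of other cell types, and genes whose profile was most alike; Tgfbr3 falls outside that rule and was named after its value was seen. Results for 1 list gene are not reported here. Members and lists were chosen with earlier results of these data known. Alternatives were DESeq2 1.42.0 (size factors, Wald test), upper-quartile scaling, limma-voom, other filters, a replicate block, an offset for transcript length and GC content, pairs of groups alone and leaving out each library. Same-numbered libraries correlated between -0.12 and 0.11, so numbers were not taken as pairs.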

Additional observations from a re-analysis of the deposited data

Results flagged for a closer look

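In 1 of 20 gene and group combinations of 4 livers, a single liver lay further from the others than Dixon's 95% limit allows, which chance gives in about 1 of 20. It was Timp1 in WT replicate 1 on HFD, at 0.417 CPM, where the gap to the next liver was 0.862 of the range of the group. The value rests on 4 reads against 2 in each of the other WT livers. The same liver was the highest WT liver for 9 of the 10 genes.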

How the results depend on the processing

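Dpt on HFD was called in 17 of 17 settings (log2 fold change 1.79 to 2.11). Of the 10 genes, 1 was called on HFD by edgeR, and this became 2 with no filter (Acta2 added), 2 with the offset for length and GC content (Dcn added), 4 by DESeq2's Wald test (Dcn, Lum and Pdgfrb added) and 1 to 2 with a library left out. Between WD livers 0 became 2 by DESeq2 (Lum and Mgp, of 87 genes). Between tumor and N-LKO liver 0 became 1 (Dcn) without tumor replicate 1, when all genes called went from 76 to 2196, and the range over left-out libraries was 0 to 1. Between tumor and WT liver 3 became 1 (Mgp) when only those groups were fitted, 2 with no filter (Lum lost), 4 by DESeq2 (Lox added) and 2 to 3 with a library left out. The difference between diets called 0 in every setting. The cause of these shifts was not tested. Genes called on HFD numbered 732 in all, 366 with the offset and 280 to 738 with a library left out. Over all genes, the N-LKO to WT log2 fold change correlated with transcript length at a Spearman rho of -0.35 on HFD and 0.13 on WD. The difference between diets correlated with length at 0.34 and with GC content at -0.28. The source of these relations was not tested. Between WD livers all genes called were 0, 11 with only those groups fitted and 0 to 1 with a library left out. Between tumor and N-LKO liver they were 76, 1020 by DESeq2, 18 by limma-voom, 29 with only those groups fitted and 5 to 2196 with a library left out. Between tumor and WT liver they were 2657, 732 with only those groups fitted and 607 to 3807 with a library left out. For the difference between diets they were 346, 972 by DESeq2, 55 with the offset and 64 to 421 with a library left out. With the replicate number as a block, 1 of the 10 genes and 680 genes in all were called on HFD. In all, 32 were called between tumor and N-LKO liver, 1846 between tumor and WT liver and 15 for the difference between diets. The block changed no count of the 10 genes. Replicate numbers were not taken as pairs, and a pairing by the other numbers in the library names was not tested. Signs turned where changes were near 0. Timp1 between tumor and N-LKO liver was -0.10 by limma-voom and -0.082 with the block. For the difference between diets Timp1 was 0.000714 with DESeq2 size factors, 0.0159 with upper-quartile scaling, 0.0115 with a filter at 1 CPM, 0.44 by limma-voom, 0.16 with the block and 0.29 with the offset. Dcn was 0.0119, 0.00789, 0.0201 and 0.0184 with upper-quartile scaling, the 1 CPM filter, limma-voom and the block, Lox was 0.00593, 0.66 and 0.0811 with upper-quartile scaling, limma-voom and the block, and Tagln was 0.18 with the offset. With a library left out, changes between tumor and N-LKO liver ranged from -0.22 to 0.52 for Acta2, -0.54 to 0.31 for Timp1 and -0.24 to 0.12 for Lum. The differences between diets ranged from -0.24 to 0.16 for Dcn, -0.58 to 0.38 for Lox, -0.013 to 0.79 for Lum, -0.10 to 0.36 for Sparc, -0.46 to 0.38 for Tagln and -0.47 to 0.38 for Timp1. Over all settings, 52 of these gene values turned sign and 828 kept sign and side of the threshold. Depth limits Acta2, Timp1, Mgp and Lox on HFD, where no WT liver held more than 8 reads of any of them.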
